A study of Homo sapiens with 6 samples.

Results

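The mRNA levels of the cell cycle cyclins were compared between METTL16-silenced and control PANC-1 cells. The cyclins were 10 genes, taken by their names (CCNA2, CCNB1, CCNB2, CCND1, CCND2, CCND3, CCNE1, CCNE2, CCNF and CCNG2) from the 58735 genes of the deposited table, and all 10 were found there. PANC-1 is an established line of human pancreatic ductal adenocarcinoma. The control group (si-NC) held 3 samples given control siRNA and the silenced group (si-METTL16) held 3 samples given siRNA against METTL16, an RNA methyltransferase. The sample titles name the controls as si-NC, whereas their transfection label reads WT, and the titles were followed. All samples came from 1 line. The study's methods call the sequenced cells stably transfected and the samples biological triplicates, while the labels say only that cells were transfected. Neither says which METTL16 sequence these samples received or how the triplicates were set up, so p-values measure the spread between these samples, which may be technical.

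Cyclins are the regulatory subunits of the cyclin-dependent kinases (CDKs), and most of them are named for their rise and fall through the cell cycle. D-type cyclins bind CDK4 and CDK6 in G1 and start the phosphorylation of the retinoblastoma protein, and E-type cyclins bind CDK2 at entry into S phase. Cyclin A2 acts in S phase and G2, the B-type cyclins drive mitosis with CDK1, and cyclin F is a subunit of a ubiquitin ligase that is active in G2. Cyclin G2 is unusual, since its mRNA is high in cells that have left the cycle and it serves as a marker of quiescence. In bulk RNA, more cells in a phase and more of an mRNA per cell cannot be told apart.

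The samples held between 15725298 and 18054436 counts, and 3 counts corresponded to between 0.166 and 0.191 CPM (counts scaled to a common total). These values use the plain total count, whereas the CPM values given for genes were also scaled by TMM. METTL16 was counted 1546, 1641 and 1764 times in the si-NC samples and 571, 528 and 627 times in the si-METTL16 samples, and the labels fit the target in all 6. Of 9 markers of ductal carcinoma lines, 7 had a mean FPKM (counts per kilobase of gene length, scaled to the total) of at least 1. None of 7 acinar, 4 islet or 3 endothelial markers reached it, with CPA1, CPB1, AMY2A and GCG at 0 in every sample. Of 4 immune markers only CD68 reached it. The summed FPKM of the immune list was between 1.19 and 1.21 in si-NC and between 1.63 and 1.99 in si-METTL16 samples, with CD3E at 0, and its part in the results was not tested.

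All 10 cyclins passed the filter on low counts, but CCND2 passed it only through the si-NC samples, where it was higher, and is left out of the counts that follow. In edgeR's quasi-likelihood test with an adjusted p under 0.05, 6 of the other 9 cyclins were higher and 2 were lower after silencing, and CCND3 was not called. Over the 15089 genes tested, 18.4% were called higher and 17.5% lower, 35.9% in all. The median log2 fold change was 0.81 for these 9 cyclins and 0.00 for the tested genes. Control and silenced samples had separate ranges for 8 of the 9, as they did for 50.9% of the tested genes. All 4 cyclins of S, G2 and M phase were higher, whereas the G1 cyclins divided into CCNE1 and CCNE2 (higher), CCND1 (lower) and CCND3 (not called), and CCNG2 was lower.

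**Figure D1:**
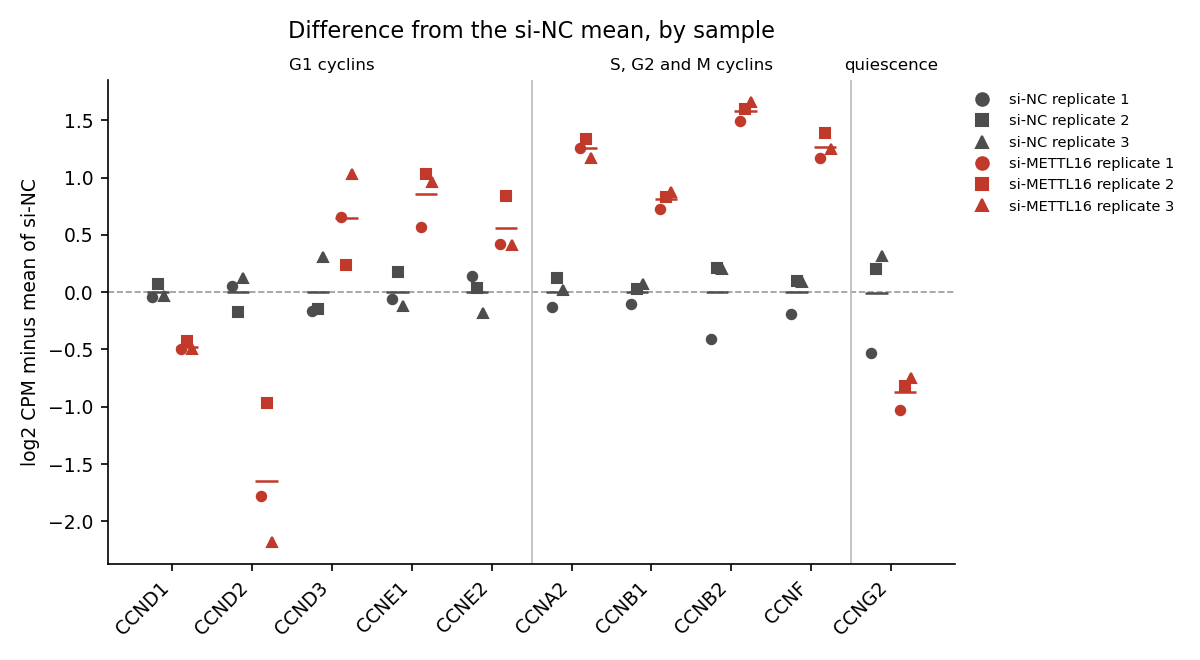
Each point is 1 sample, and the y axis gives its log2 CPM minus the mean of the si-NC samples for that cyclin, with the group means as bars. The CCNA2, CCNB1, CCNB2 and CCNF points of the si-METTL16 samples lie between 0.73 and 1.66 above that mean, those of CCND1 between 0.43 and 0.50 below it, and CCND3 has overlapping groups.

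The levels were set side by side per gene length, as FPKM. In si-NC cells the order ran from CCND1 (104 ± 4.28 FPKM, SD, n = 3) through CCNB1 (33.2 ± 2.00), CCNA2 (9.37 ± 0.819), CCNB2 (7.03 ± 1.61), CCNG2 (6.80 ± 1.96), CCNF (2.41 ± 0.264), CCNE1 (2.35 ± 0.271), CCNE2 (1.15 ± 0.126) and CCND3 (1.14 ± 0.225) to CCND2 (0.164 ± 0.0169). The ranges of neighbours in this order overlapped for CCNB2 and CCNG2, for CCNF and CCNE1, and for CCNE2 and CCND3, and lay apart for the others. In si-METTL16 cells CCND1 (73.6 ± 2.42 FPKM) and CCNB1 (57.3 ± 2.97 FPKM) still led the order. CCNG2 went from the fifth place to the seventh, with 3.56 ± 0.368 FPKM. There CCNA2 overlapped with CCNB2, CCNE1 with CCNG2, and CCND3 with CCNE2.

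The place of CCND3 rests on the gene length behind FPKM. Its deposited length of 15071 bases is 7.44 times the 2026 bases of its MANE Select transcript (the reference transcript of the gene in GENCODE v44), while this ratio lies between 1.19 and 2.99 for the other cyclins. With MANE Select lengths, an alternative added after the data were seen, the level of CCND3 in si-NC cells was 8.50 in place of 1.14 FPKM and it stood above CCNE1, CCNF and CCNE2. CCNB2 then stood above CCNA2, with overlapping values in si-NC cells. CCND1 and CCNB1 led the order with either length. The edgeR fold changes and calls do not use gene length, whereas the FPKM shares and ratios given below do.

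**Figure D2:**
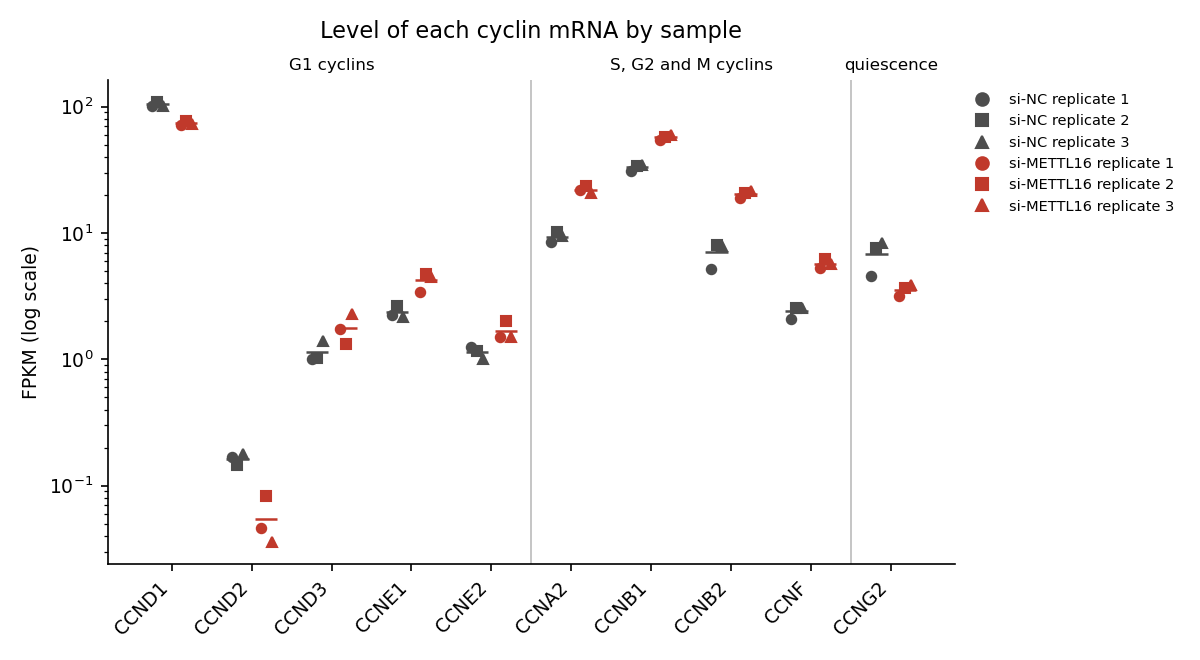
The deposited FPKM of each cyclin in each sample is plotted on a log scale, with the group means as bars. CCND1 is at the top with values from 71.9 to 109 FPKM, and CCND2 is at the bottom with values from 0.0358 to 0.178 FPKM.

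Expressed as a share of the summed FPKM of the 10 cyclins, CCND1 made up 64.4, 61.9 and 60.1% in the si-NC samples and 39.5, 38.9 and 37.7% in the si-METTL16 samples. The 4 cyclins of S, G2 and M phase together made up 29.8, 31.0 and 32.2% in si-NC and 55.1, 55.1 and 56.0% in si-METTL16 samples. Thus CCND1 held more of the cyclin mRNA than the 4 S, G2 and M cyclins together in every control sample, and less in every silenced sample. As a single gene CCND1 was the most abundant in every sample. With MANE Select lengths the CCND1 share was 56.2% in si-NC and 32.5% in si-METTL16 cells. The S, G2 and M share was then 34.3% in si-NC and 58.5% in si-METTL16 cells. The sum itself was 168 ± 9.68 FPKM in si-NC and 190 ± 7.54 FPKM in si-METTL16 cells (SD, n = 3).

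**Figure D3:**
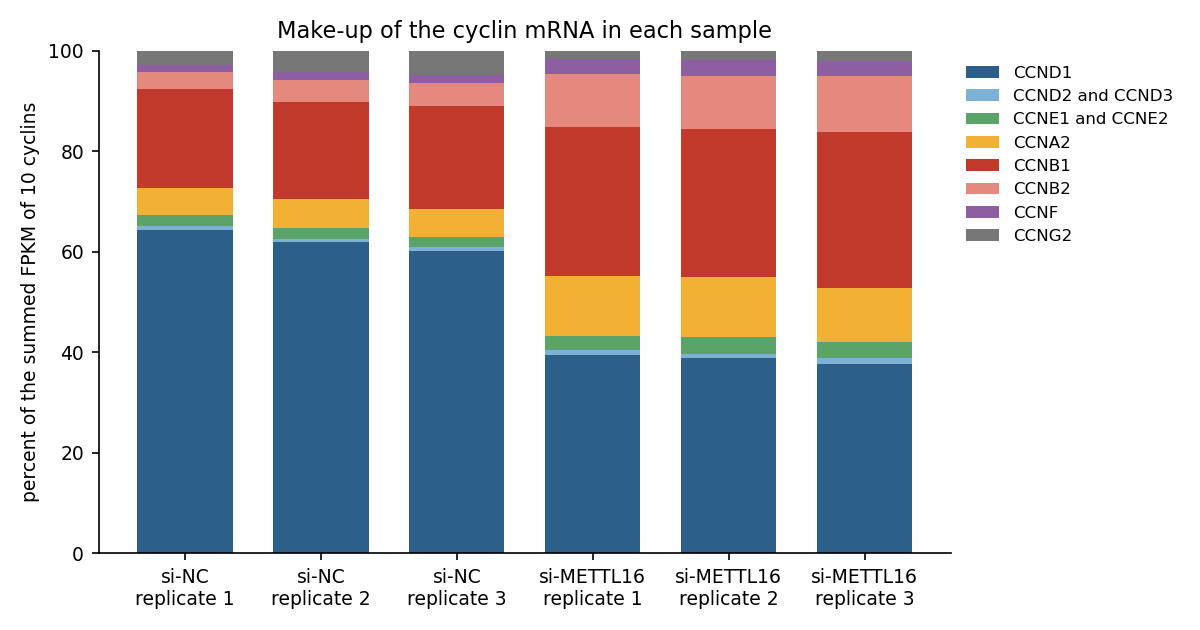
Each bar is 1 sample and shows the percent of the summed FPKM of the 10 cyclins held by each gene or pair of genes. The CCND1 part falls from between 60.1 and 64.4% in the si-NC bars to between 37.7 and 39.5% in the si-METTL16 bars, and the parts of CCNA2, CCNB1, CCNB2 and CCNF widen.

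The mitotic cyclins were considered first, with positions as in the deposited table (GRCh38). CCNB2 (ENSG00000157456, chr15:59105078-59125045, plus strand), a B-type cyclin found mainly at the Golgi, was counted 387, 598 and 615 times in si-NC replicates 1, 2 and 3 and 1406, 1445 and 1733 times in the si-METTL16 replicates. Every silenced sample was above every control, and si-NC replicate 1 was the lowest of all. Its log2 fold change of 1.56 (standard error 0.17, edgeR adjusted p = 6.2e-04) was the highest among the cyclins, and 1.42% of the tested genes had a higher one. CCNB1 (ENSG00000134057, chr5:69167010-69178245, plus strand), the main partner of CDK1 at entry into mitosis, had 2027, 2226 and 2359 counts in si-NC and 3504, 3557 and 4208 counts in si-METTL16 samples. The replicates lay close together within both groups, and the groups were apart. CCNB1 rose by a log2 fold change of 0.81 (standard error 0.07, edgeR adjusted p = 2.6e-04), which is 1.75-fold. The rise of CCNB2 was 2.95-fold, so the proportions within the B-type pair changed. CCNB2 made up 14.3, 19.1 and 18.6% of the summed FPKM of CCNB1 and CCNB2 in the si-NC samples and 26.0, 26.3 and 26.5% in the si-METTL16 samples. The size of these shares rests on the deposited lengths, which are 2.99 (CCNB2) and 1.92 (CCNB1) times the MANE Select lengths.

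CCNA2 (ENSG00000145386, chr4:121816444-121823933, minus strand) encodes the cyclin that binds CDK2 in S phase and CDK1 in G2. It had 652, 780 and 750 counts in the si-NC samples and 1658, 1677 and 1709 counts in the si-METTL16 samples, without overlap. This gave 42.4 ± 3.70 CPM for the controls and 101 ± 6.23 CPM for the silenced samples (SD, n = 3), a log2 fold change of 1.25 (standard error 0.09, edgeR adjusted p = 1.6e-04). CCNF (ENSG00000162063, chr16:2429394-2458854, plus strand) encodes cyclin F, the substrate receptor of a ubiquitin ligase that does not act through a CDK. It had 340, 417 and 427 counts in si-NC and 847, 934 and 979 counts in si-METTL16 samples. Its exons share 527 and 219 of 6309 bases with 2 lncRNA genes on the opposite strand, which had 0 and 24 counts over the 6 samples. The 3 silenced samples lay well above the controls, and CCNF rose by a log2 fold change of 1.26 (standard error 0.11, edgeR adjusted p = 3.0e-04). CCNA2, CCNB1, CCNB2 and CCNF were called in all 16 alternative fits, and the median log2 fold change of the 4 genes was 1.26. The exons of CCNA2 share 254 of 2748 bases with EXOSC9 on the opposite strand (GENCODE v44), which had an edgeR log2 fold change of 0.11 (adjusted p = 0.569), and counts of the shared bases are uncertain because the use of strand in counting is not given in the sources used here.

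Since these 4 genes moved together, the 250 bases before their start sites were read from the RefSeq promoter table (GRCh38.p14). Windows of 7 of the 10 cyclins were searched. Late cell cycle genes are known for a CHR element, which is bound by the MuvB complexes, and for CCAAT boxes, which are bound by NF-Y. The CHR was searched as TTTGAA, with its known variants TTTAAA and then TTCGAA besides CTTGAA, and the CCAAT box as CCAAT, on both strands and without overlap between the 2 motifs. The last 150 bases before the start are shown 5′ to 3′ on the strand of the gene for the 4 cyclins of S, G2 and M phase, and for CCNE1 as a G1 cyclin that was also higher. Capitals mark CHR and CCAAT matches, and a CCAAT box on the other strand reads ATTGG.
CCNA2 (chr4:121823884-121824033, minus strand): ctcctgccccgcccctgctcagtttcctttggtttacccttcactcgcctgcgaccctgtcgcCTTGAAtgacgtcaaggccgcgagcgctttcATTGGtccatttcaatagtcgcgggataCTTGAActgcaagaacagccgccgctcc
CCNB1 (chr5:69167000-69167149, plus strand): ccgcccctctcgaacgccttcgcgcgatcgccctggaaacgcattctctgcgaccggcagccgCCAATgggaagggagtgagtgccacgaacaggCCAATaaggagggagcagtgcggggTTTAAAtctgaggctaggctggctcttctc
CCNB2 (chr15:59104996-59105145, plus strand): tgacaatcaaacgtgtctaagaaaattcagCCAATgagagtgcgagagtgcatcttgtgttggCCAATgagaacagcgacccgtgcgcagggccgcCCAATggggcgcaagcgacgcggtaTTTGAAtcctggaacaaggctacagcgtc
CCNF (chr16:2429297-2429446, plus strand): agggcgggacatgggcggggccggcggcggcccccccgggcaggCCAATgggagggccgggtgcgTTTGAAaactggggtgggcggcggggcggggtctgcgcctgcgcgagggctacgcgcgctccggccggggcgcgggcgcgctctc
CCNE1 (chr19:29811841-29811990, plus strand): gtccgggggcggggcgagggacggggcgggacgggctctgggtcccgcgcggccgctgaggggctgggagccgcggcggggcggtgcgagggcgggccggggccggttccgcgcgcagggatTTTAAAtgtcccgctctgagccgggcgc

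The CHR match nearest to the RefSeq start began 28 bases before it in CCNA2, 30 in CCNB1, 29 in CCNB2 and 85 in CCNF. RefSeq starts can differ from the gene starts of the deposited table. The CCNF sequence shown runs to position 2429446, for example, while the deposited gene starts at 2429394, so these distances depend on the start used. In each of these 4 promoters a CCAAT box began 28 (CCNA2), 25 (CCNB1), 25 (CCNB2) or 21 (CCNF) bases before a CHR match. CCNE1 had a CHR match 28 bases before the start and no CCAAT box, and CCNG2 had a CHR match 73 bases before the start and no CCAAT box. None of the 3 CCND3 windows held a CHR match, and 2 of them held a CCAAT box. Among all 35116 promoter windows of this length, 29.1% held a CHR match, 32.0% a CCAAT box and 10.2% both. A CCAAT box beginning between 20 and 30 bases before a CHR match, a range set after the cyclin promoters were seen, occurred in 0.78% of the windows. The E2F motif letters TTTCGCGC, TTTGGCGC, TTTCCCGC and TTTGCCGC (in 2.8% of windows) and the FOXO motif letters GTAAACA (in 3.0%) had no match in the windows of the 7 cyclins. These matches describe letters in the sequence, and binding was not measured.

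The D-type cyclins, which connect growth factor signals to the cell cycle, did not share a direction. CCND1 (ENSG00000110092, chr11:69641087-69654474, plus strand) was the most abundant cyclin in every sample, with 11958, 12941 and 12511 counts in si-NC and 8419, 8450 and 9220 counts in si-METTL16 samples. The groups were well apart, and CCND1 fell by 0.48 on the log2 scale (standard error 0.05, edgeR adjusted p = 7.1e-04) to 71.8% of the control level. This call was kept in all 16 alternative fits, with log2 fold changes between -0.51 and -0.45. The change was small beside those of the S, G2 and M cyclins, and 17.4% of the tested genes had a lower log2 fold change. Exons of CCND1 share 497 of 4761 bases with LTO1 on the opposite strand, a gene with 2060 counts over the 6 samples against 63499 for CCND1.

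CCND2 (ENSG00000118971, chr12:4273772-4305350, plus strand) was nearly absent from these cells, with 22, 19 and 24 counts in si-NC and 6, 10 and 5 counts in si-METTL16 samples. Its groups were apart, with means of 1.26 ± 0.129 CPM in control and 0.428 ± 0.189 CPM in silenced cells (SD, n = 3). The log2 fold change was -1.56 (standard error 0.38, edgeR adjusted p = 0.0165). The filter asks for 0.594 CPM (before TMM), which 3 samples reached in the si-NC group and 1 in the si-METTL16 group. CCND2 could thus enter the test only by being higher in the controls, and its p is a description. With low genes kept in the fit, where this choice does not arise, the edgeR adjusted p was 0.0319. The call was lost without si-NC replicate 3 (adjusted p = 0.0580), without si-METTL16 replicate 1 (0.0579) or without si-METTL16 replicate 3 (0.0552), all from edgeR. CCND2 was not tested where at least 10 counts in every sample or a mean FPKM of at least 1 was required. It also shares 999 of 7988 exon bases with ENSG00000285901, a coding gene on the same strand that had 21 counts over the 6 samples against 86 for CCND2.

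CCND3 (ENSG00000112576, chr6:41934933-42050357, minus strand), the D-type cyclin best known from blood cells, had 255, 259 and 368 counts in si-NC and 438, 312 and 620 counts in si-METTL16 samples. Replicate 3 of si-NC was above replicate 2 of si-METTL16, so the groups overlapped. The log2 fold change was 0.66 (standard error 0.22, 95% interval from 0.14 to 1.18) and missed the threshold in edgeR with an adjusted p of 0.0532. It passed in 4 of the 16 alternatives, among them those without si-NC replicate 3 (0.83, edgeR adjusted p = 0.0428) and without si-METTL16 replicate 2 (0.84, edgeR adjusted p = 0.0235) and the Wald test of DESeq2 (0.65, adjusted p = 0.0199). The range of its adjusted p over the 16 alternatives was from 0.0160 to 0.147. The ratio of CCND3 to CCND1 in FPKM was 0.00996, 0.00935 and 0.0137 in si-NC and 0.0243, 0.0172 and 0.0314 in si-METTL16 samples, and these values did not overlap. The size of this ratio rests on the deposited lengths, which are 7.44 (CCND3) and 1.66 (CCND1) times the MANE Select lengths.

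The E-type cyclins, which activate CDK2 for entry into S phase, were both higher after silencing. CCNE1 (ENSG00000105173, chr19:29811898-29824308, plus strand) had 183, 218 and 182 counts in si-NC and 276, 361 and 395 counts in si-METTL16 samples. All 3 silenced samples exceeded the controls, with replicate 1 the lowest of them. CCNE1 rose by a log2 fold change of 0.86 (standard error 0.15, edgeR adjusted p = 0.00507), which is 1.82-fold, and was called in all 16 alternative fits. CCNE2 (ENSG00000175305, chr8:94879770-94896678, minus strand) had 136, 127 and 113 counts in si-NC and 160, 203 and 174 counts in si-METTL16 samples. The lowest silenced sample was only slightly above the highest control. The log2 fold change of CCNE2 was 0.56 (standard error 0.17, edgeR adjusted p = 0.0364).

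The call of CCNE2 was held by 8 of the 16 alternatives. It was lost on leaving out any of 5 samples, with adjusted p of 0.0554, 0.0811 and 0.110 without si-NC replicate 1, 2 or 3 and of 0.0502 and 0.0992 without si-METTL16 replicate 1 or 2 (edgeR). Over all alternatives the adjusted p ranged from 0.0330 to 0.110. CCNE2 also shares 1629 of its 4397 exon bases with INTS8 on the opposite strand, a gene with 7499 counts over the 6 samples against 913 for CCNE2. INTS8 had a log2 fold change of 0.00 in edgeR (adjusted p = 0.984). If counting did not use strand, the counts of CCNE2 can hold reads of INTS8, and this was not tested. CCNE1 made up 64.0, 69.4 and 68.0% of the summed FPKM of both E-type cyclins in si-NC and 69.5, 70.2 and 75.0% in si-METTL16 samples, where the nearest values of the groups differ by less than the spread within them.

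CCNG2 (ENSG00000138764, chr4:77157151-77433388, plus strand), the marker of quiescence, was lower after silencing. It had 737, 1225 and 1379 counts in si-NC and 503, 553 and 669 counts in si-METTL16 samples. The controls were spread widely, with replicate 1 close to the silenced samples, but the groups did not overlap. The mean was 64.8 ± 18.6 CPM for the controls and 34.4 ± 3.40 CPM for the silenced samples (SD, n = 3). CCNG2 fell by 0.91 on the log2 scale (standard error 0.21, edgeR adjusted p = 0.0148) to 53.1% of the control level. The call was lost without si-METTL16 replicate 1 (log2 fold change -0.84, edgeR adjusted p = 0.0509) and kept in the other 15 alternatives. CCNG1, its closest relative and a known p53 target, had a log2 fold change of 0.02 in edgeR (95% interval from -0.23 to 0.26, adjusted p = 0.907). METTL16 is known to methylate the letters UACAGAGAA in U6 snRNA and in hairpins of MAT2A mRNA. Among the MANE Select transcripts of the cyclins this motif occurred in CCNG2 alone, once and in its 3′ UTR, and 3.43% of 19061 transcripts held it. Methylation was not measured in these samples.

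**Figure D4:**
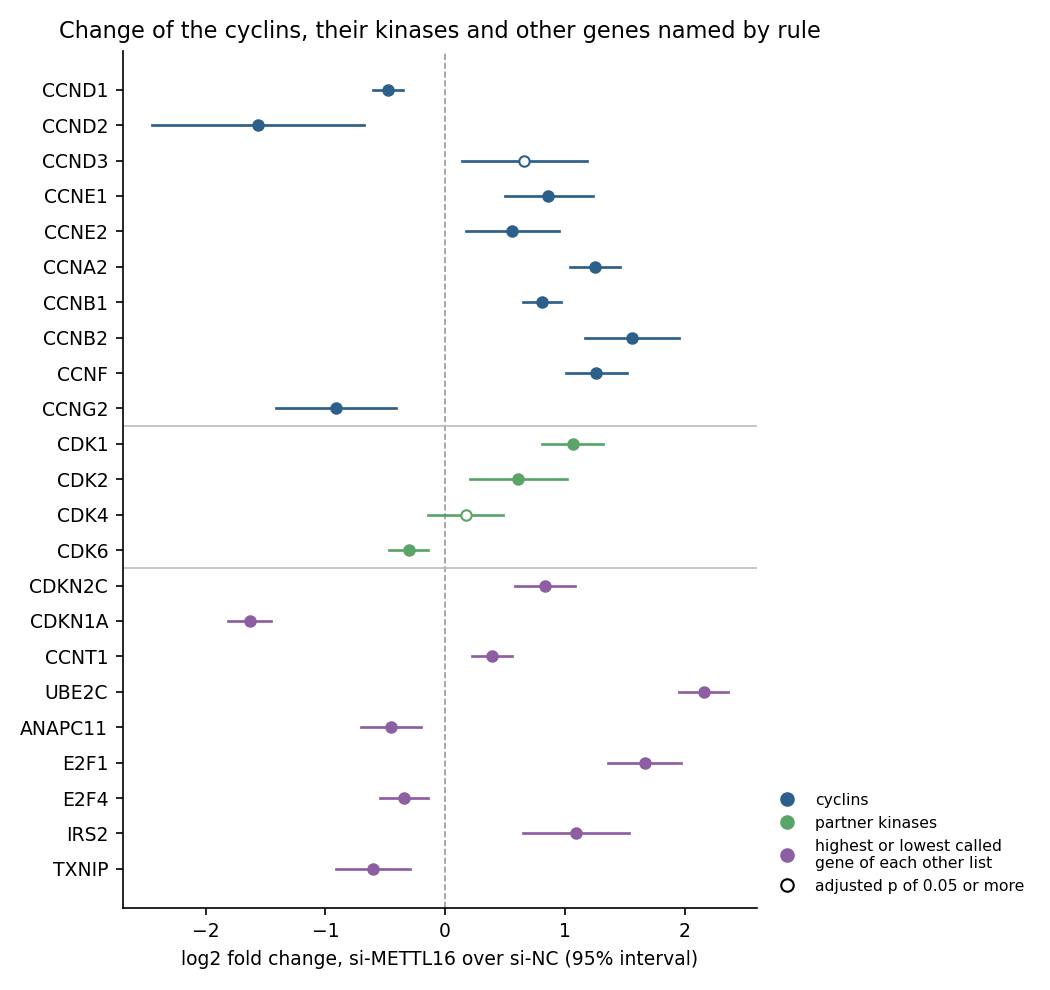
The x axis gives the edgeR log2 fold change of si-METTL16 over si-NC with its 95% interval for the 10 cyclins, 4 partner kinases and the genes named by rule from the other lists. The cyclins run from -1.56 (CCND2) to 1.56 (CCNB2), and open circles mark CCND3 and CDK4, which missed the threshold.

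To contrast the classes within each sample, the mean log2 CPM of the 4 cyclins of S, G2 and M phase was set against that of the 5 G1 cyclins and against CCNG2. CPM is not divided by gene length, so these differences can be compared between samples, while their sign says nothing of which class was more abundant. The S, G2 and M cyclins minus the G1 cyclins came to 1.19, 1.49 and 1.45 in the si-NC samples and 2.61, 2.50 and 2.59 in the si-METTL16 samples. The groups did not overlap, and their means differed by 1.19. The G1 class here holds CCND2, which passed the filter only through the si-NC samples. Without CCND2, whose low counts weigh on the mean, the difference of the means was 0.84. Against the D-type cyclins alone, with CCND2 still among them, it was 1.64. The S, G2 and M cyclins minus CCNG2 came to -0.19, -0.59 and -0.74 in si-NC and 1.69, 1.60 and 1.48 in si-METTL16 samples, again without overlap. The G1 cyclins minus CCNG2 were higher in the silenced samples by 0.90 on average and by 1.26 without CCND2. With the D-type cyclins alone, CCND2 again among them, they were higher by 0.46. Per length, as log2(FPKM + 0.1), the mean of the S, G2 and M cyclins stood above CCNG2 by 0.68, 0.28 and 0.14 in si-NC and by 2.53, 2.45 and 2.33 in si-METTL16 samples. It was thus above CCNG2 in all 6 samples, and by more in the silenced ones. On this scale and without CCND2, the S, G2 and M minus G1 difference was 0.78, 1.03 and 1.05 in si-NC samples. In si-METTL16 samples it was 1.84, 1.83 and 1.73, without overlap. These means describe the samples and were given no test.

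**Figure D5:**
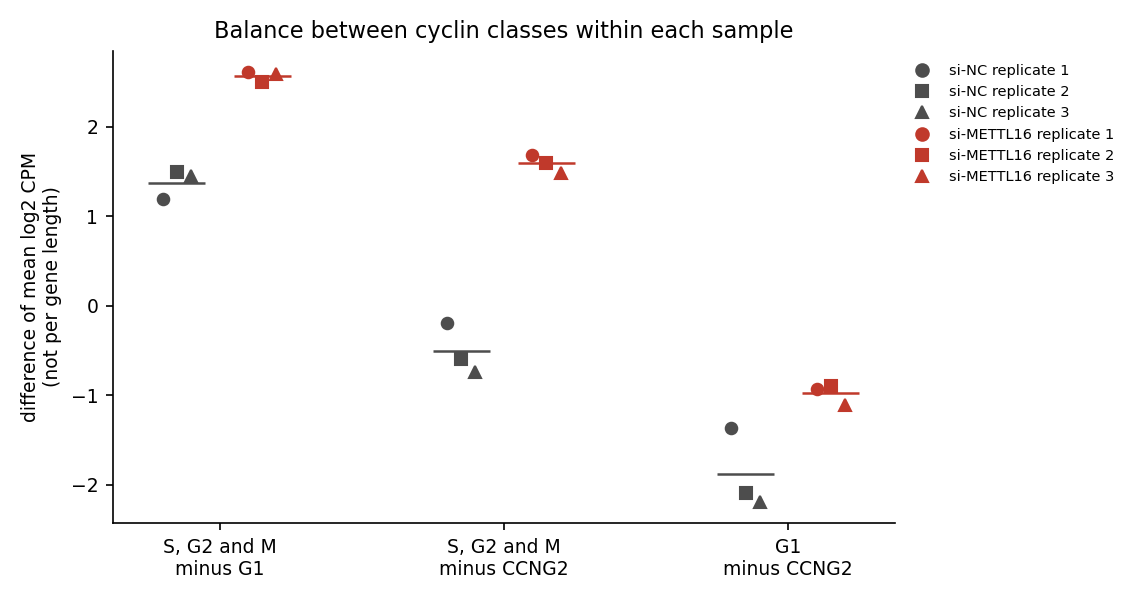
Each point is 1 sample, and the y axis gives the difference between mean log2 CPM values (not per gene length) of the classes named below it, with group means as bars. The G1 class holds CCND2. The S, G2 and M cyclins minus CCNG2 lie between -0.74 and -0.19 in si-NC and between 1.48 and 1.69 in si-METTL16 samples, and the distance between the groups is what the plot shows.

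Between single cyclins, the ratio of CCNB1 to CCND1 in FPKM was 0.306, 0.311 and 0.340 in si-NC and 0.751, 0.760 and 0.824 in si-METTL16 samples, a clear separation. The ratio of CCNE1 to CCND1 was 0.0222, 0.0244 and 0.0211 in si-NC and 0.0475, 0.0619 and 0.0621 in si-METTL16 samples, also without overlap. The ratio of CCNA2 to CCNE1 was 3.80, 3.81 and 4.39 in si-NC and 6.40, 4.95 and 4.61 in si-METTL16 samples. Here the groups nearly touched. The size of these ratios also rests on the deposited lengths.

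The kinases that these cyclins bind were then examined. CDK1, the partner of the A- and B-type cyclins, had 9.12 ± 0.767 FPKM in si-NC and 18.8 ± 2.33 FPKM in si-METTL16 cells (SD, n = 3). It rose by a log2 fold change of 1.07 (standard error 0.11, edgeR adjusted p = 5.3e-04). CDK6, a partner of the D-type cyclins, fell by 0.30 on the log2 scale (edgeR adjusted p = 0.0143), and it was called in all alternatives. CDK4, the other D-type partner, was not called (log2 fold change 0.17, 95% interval from -0.14 to 0.48, edgeR adjusted p = 0.357), except without si-NC replicate 1 (0.33, adjusted p = 0.0346). CDK2, the partner of the E-type cyclins and of cyclin A2, rose by 0.61 on the log2 scale (standard error 0.17, edgeR adjusted p = 0.0297). Its call was lost without si-NC replicate 1, 2 or 3 (edgeR adjusted p = 0.0591, 0.0860 and 0.0870) and when low genes were kept (adjusted p = 0.0517). CDK2 and CDK4 overlap PMEL and TSPAN31 on the opposite strand.

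Among 7 CDK inhibitors, 5 were tested, of which 3 were lower and 2 higher (60.0% and 40.0%, beside 17.5% and 18.4% of all tested genes), with a median log2 fold change of -0.54 beside 0.00 for all tested genes. CDKN1A, which encodes p21, had the lowest log2 fold change (-1.63, standard error 0.07, edgeR adjusted p = 8.3e-05). CDKN2C, which encodes the CDK4 and CDK6 inhibitor p18, had the highest (0.83, standard error 0.11, edgeR adjusted p = 0.00125). The count of 2 higher became 1 without si-NC replicate 1 or 2 and without si-METTL16 replicate 1 or 3. CDKN2A, which encodes the CDK4 and CDK6 inhibitor p16, had no count in any sample, where 3 counts correspond to at most 0.191 CPM.

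Cyclins outside this group, many of which serve transcription, were counted beside them. Of 16 tested genes among 18 other cyclins, 2 were higher, 0 were lower and 14 were not called by edgeR, with a median log2 fold change of 0.08. The share called was 12.5%, beside 35.9% of all tested genes. Without si-METTL16 replicate 3 the count of higher genes was 4. The highest was CCNT1, a subunit of the transcription elongation factor P-TEFb, with 89.9 ± 1.24 CPM for the controls and 118 ± 9.17 CPM for the silenced samples (SD, n = 3) and a log2 fold change of 0.39 (edgeR adjusted p = 0.00580). The testis cyclin CCNA1 had at most 1 count in a sample.

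Genes of cyclin degradation and its regulation were also read from the table. Of 18 ubiquitin ligase subunits, E2 enzymes and regulators, 9 were higher, 1 was lower and 8 were not called, with a median log2 fold change of 0.28. The share called was 55.6%, beside 35.9% of all tested genes, and the share lower was 5.56%, beside 17.5%. UBE2C, an E2 enzyme of the anaphase-promoting complex, which marks the A- and B-type cyclins for degradation, had the highest log2 fold change (2.16, standard error 0.09, edgeR adjusted p = 7.0e-05). The lower gene was ANAPC11, the RING subunit of this complex (-0.45, edgeR adjusted p = 0.0155). Its call was lost without si-NC replicate 3 (adjusted p = 0.0517), without si-METTL16 replicate 2 (0.0514) and without si-METTL16 replicate 3 (0.0501) in edgeR.

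Of 23 transcription factors and cofactors that act on cyclin genes, 10 were higher, 2 were lower and 11 were not called, with a median log2 fold change of 0.34. These are 43.5% higher and 8.70% lower, again beside 18.4% and 17.5%. E2F1 had the highest log2 fold change (1.67, standard error 0.13, edgeR adjusted p = 2.1e-04). E2F4 had the lowest among the called genes (-0.34, edgeR adjusted p = 0.0193). The E2F4 call was lost without si-NC replicate 1 (adjusted p = 0.0519), si-METTL16 replicate 1 (0.0526) or si-METTL16 replicate 2 (0.0565) in edgeR, and the count of 2 lower genes became 1 without si-NC replicate 1 or 3 and 0 without si-METTL16 replicate 1 or 2.

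CCNG2 is known as a target of FOXO factors, and 19 genes of FOXO signalling and quiescence were read beside it. Of these 5 were higher, 2 were lower and 12 were not called, with a median log2 fold change of 0.08. The share called, 36.8%, was near the 35.9% of all tested genes and is no result about this list. IRS2, an adaptor of insulin signalling and a FOXO target, had the highest log2 fold change (1.09, standard error 0.19, edgeR adjusted p = 0.00417). TXNIP, an inhibitor of thioredoxin, had the lowest among the called genes (-0.60, standard error 0.13, edgeR adjusted p = 0.0115). FOXO1, FOXO3 and FOXO4 were not called, with edgeR log2 fold changes of 0.22, 0.07 and -0.22 (adjusted p = 0.215, 0.869 and 0.545). The count of 5 higher genes became 2 without si-NC replicate 1 and 3 without si-NC replicate 2 or si-METTL16 replicate 2, and the count of 2 lower genes became 1 without si-NC replicate 1, si-METTL16 replicate 1 or si-METTL16 replicate 3.

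Finally, genes with the pattern most like that of the cyclins were sought by the root mean square distance of log2 CPM, centred on the si-NC mean, over the 6 samples. Nearest to the mean profile of the S, G2 and M cyclins were CCDC150 (distance 0.0301), TPX2 (0.0369) and UNG (0.0430). TPX2 is a spindle assembly factor and UNG is the uracil DNA glycosylase. Nearest to CCND1 were NTPCR (0.0161), RBM19 (0.0176) and SNHG14 (0.0274). Nearest to CCNG2 were ZNF792 (0.0518), AKTIP (0.133) and ZDHHC23 (0.138), at larger distances than for the other profiles.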

How the data were processed

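RNA-seq data of 6 PANC-1 samples (3 si-NC, 3 si-METTL16) were analysed, grouped and numbered by their titles. The authors deposited a table of raw counts, with totals between 15725298 and 18054436, and FPKM values, which are those counts divided by gene length and total count. The submitters' processing notes name HISAT2 2.0.4, StringTie 1.3.0 and GRCh38. The annotation release, the counting program and the use of strand are not given in the sources used here. Raw counts were analysed with edgeR 4.0.16 in R 4.3.3 in place of the limma named by the study: filterByExpr (minimum count 10, minimum total count 15) left 15089 genes, which were scaled by TMM and compared by glmQLFit and glmQLFTest with Benjamini-Hochberg adjustment over all of them and a threshold of 0.05. Standard errors were derived from fold changes and F statistics. With 3 samples against 3, an exact permutation test of 1 gene cannot go below p = 0.1, and none was used. The scripts were tested on simulated data. Precision is limited by 3 samples per group and, for CCND2, by depth.

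The cyclins and the gene lists were chosen with earlier results of these data known, and their counts are descriptions. The genes named were all 10 cyclins, CDK1, CDK2, CDK4, CDK6, METTL16, the called genes with the highest and the lowest log2 fold change of each other list, and the 3 genes nearest to each of 3 profiles; CCNG1, CCNA1, CDKN2A, the FOXO genes, the overlapping genes and the markers were named after their values were seen. Log2 CPM used a prior count of 2. Alternatives were the replicate block, each sample left out, other filters and scalings, the Wald test of DESeq2 1.42.0, limma 3.58.1 on voom values, and limma on log2(FPKM + 1) and log2(FPKM + 0.1) for genes averaging an FPKM of 1 or more. Overlaps and transcripts came from GENCODE v44, read in Python 3.11.15 (numpy 2.4.6, pandas 2.3.3), and promoters from RefSeq on GRCh38.p14. CCND1, CCND2 and CCNE2 were not among the promoters searched, so the motif statements do not cover them. The table held 27 symbols that had been turned into dates, which were restored from the gene identifiers.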

Additional observations from a re-analysis of the deposited data

How the results depend on the processing

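CCNA2, CCNB1, CCNB2, CCNF, CCNE1 and CCND1 kept their direction and call in all 16 alternatives, and no cyclin changed direction in any. With each sample left out in turn, log2 fold changes lay from -1.96 to -1.32 for CCND2, from 0.45 to 0.84 for CCND3, from 0.41 to 0.64 for CCNE2 and from -1.14 to -0.75 for CCNG2. In the same fits 1 to 3 cyclins were called lower, with CCND2 counted, which passed the main filter only through the si-NC samples. The 1 was without si-METTL16 replicate 1, which ended the calls of CCND2 and CCNG2. CDK partners called higher numbered 1 to 2, CDK inhibitors higher 1 to 2, other cyclins higher 2 to 4, turnover genes lower 0 to 1, transcription genes lower 0 to 3, and FOXO and quiescence genes 2 to 4 higher and 1 to 3 lower. Without a filter on low genes CCNE2 was not called (log2 fold change 0.56), and 1 CDK partner, 1 CDK inhibitor and 3 FOXO and quiescence genes were higher and 1 of the last lower. On log2(FPKM + 1) and log2(FPKM + 0.1), limma gave CCNE2 values of 0.31 and 0.50, not called, with 3 FOXO and quiescence genes higher and 1 other cyclin lower in each. DESeq2 called CCND3 (0.65). The causes were not tested. The class difference of 1.19 moved to 0.84 without CCND2. It moved to 1.64 with D-type cyclins alone, CCND2 among them. Both alternatives were added after seeing the data.

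Same-numbered samples shared little of their deviations from the group means (correlations 0.0253, 0.0371 and 0.0298 across genes), although each sample correlated best with its own number, a hint from the data and not from the design. With the replicate number as a block, 10 cyclins were called, CCND3 (log2 fold change 0.65) among them. This count also holds CCND2, which passed the filter only through the si-NC samples. In that fit 1 CDK inhibitor was higher, and 5013 genes were called in place of 5418.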
